A study of Mus musculus with 16 samples.

Results

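Bpifa2 and 6 other transcripts best known from salivary glands (Amy1, Smr3a, Dcpp1, Pip, Muc19 and Aqp5) were followed through libraries of sorted lymph node macrophages. Bpifa2 was chosen on its low counts in tumor-draining lymph nodes (tdLNs), so its counts are a description. The other 6 genes were chosen by their known expression in salivary tissue to see whether they went with it. Earlier results of these data were known at that choice, so the 6 were not picked without sight of the data. All 7 genes were found among the 55421 genes of the count table, and 5 of them (Bpifa2, Amy1, Smr3a, Dcpp1 and Pip) passed the filter on low counts that left 21085 genes for testing. Muc19, with 4 counts in all, and Aqp5, with 5, did not.

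All mice were C57B/6 males that carried a MOC2 tumor, a squamous cell carcinoma line of which 500000 cells had been placed in the skin of the flank close to the inguinal node 2 weeks before, so no group was free of tumor. Subcapsular sinus macrophages (SSMs) and medullary sinus macrophages (MSMs) were sorted by flow cytometry as live CD45+ CD11b+ CD169+ cells lacking CD3, B220 and Ly6G, with CD11c- cells of low side scatter taken as SSMs and CD11c+ cells of high side scatter as MSMs. The 4 groups were SSMs and MSMs from tdLNs and from non-draining lymph nodes (ndLNs), with 2 libraries each, and each library came from nodes pooled from 2 mice, either 2 tdLNs or 6 ndLNs (contralateral inguinal, axillary and brachial). Draining status, node site and number of nodes therefore changed together and cannot be told apart. The labels name neither a cervical node nor a salivary gland among the tissues taken. SSMs and MSMs of one pool number came from the same cell suspension, so the MSM libraries are no second set of animals, and p-values measure the spread between pools. In these bulk libraries, fewer cells of a type and less RNA per cell cannot be told apart.

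Saliva is made by serous and mucous acini and by demilune cells, which release digestive, antimicrobial and lubricating proteins, and is modified in the ducts, where rodents add growth factors and kallikreins. Bpifa2, also called parotid secretory protein, belongs to the family of secreted lipid-binding proteins with a BPI fold and is among the abundant products of the mouse parotid gland. Amy1 encodes salivary amylase, Smr3a a submaxillary gland androgen-regulated protein, Dcpp1 a demilune cell and parotid protein, Pip the prolactin-inducible protein, Muc19 a gel-forming mucin of mucous cells and Aqp5 the water channel of the apical acinar membrane. None of them serves as a macrophage marker.

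For Bpifa2, Smr3a, Pip and Dcpp1, the 100 bases before the annotated start are shown because all 4 hold the letters TATAA, the core of the TATA box (in capitals), a feature that played no part in their choice. The sequences come from RefSeq on build GRCm38.p6, where they lie on the plus strand at chr2:154008176-154008275 for Bpifa2, chr5:88002425-88002524 for Smr3a, chr6:41847449-41847548 for Pip and chr17:23880776-23880875 for Dcpp1.
Bpifa2: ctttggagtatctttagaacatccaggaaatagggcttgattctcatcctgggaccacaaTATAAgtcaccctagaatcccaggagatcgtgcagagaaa
Smr3a: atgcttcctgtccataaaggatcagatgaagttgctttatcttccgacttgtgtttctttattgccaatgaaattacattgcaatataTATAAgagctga
Pip: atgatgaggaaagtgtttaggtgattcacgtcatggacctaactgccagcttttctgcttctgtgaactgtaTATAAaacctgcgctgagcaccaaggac
Dcpp1: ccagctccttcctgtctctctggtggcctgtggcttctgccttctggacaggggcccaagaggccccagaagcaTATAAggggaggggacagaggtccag
The match began 40 bases before the start in Bpifa2, 28 in Pip, 26 in Dcpp1 and 12 in Smr3a. Amy1 had 2 annotated starts, 1 with a match 63 bases upstream and 1 without. No match was found within this stretch of Aqp5, and Muc19 was not matched to an entry. TATAA was present on the sense strand in 7.48% of 32851 promoters cut to the same length and on either strand in 10.2%. A match describes the letters only.

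Bpifa2 (ENSMUSG00000042459, chr2:154008265-154016079, plus strand, mm10) was counted 3349 and 2939 times in the SSM libraries from ndLNs and 1106 and 1108 times in the MSM libraries from ndLNs. In tdLNs it was counted 1 and 0 times in SSMs and 2 and 0 times in MSMs. Thus no ndLN library had fewer than 1106 counts and no tdLN library more than 2. As CPM (the count scaled to a common library size, with TMM factors), the level was 60.5 ± 1.55 (SD, n = 2) in SSMs and 26.5 ± 2.59 (SD, n = 2) in MSMs from ndLNs. The ratio of ndLN to tdLN was 5341 in SSMs (95% counting interval, 958 to 2.11e+05) and 1144 in MSMs (316 to 9452), with 1 and 2 counts in the lower group. The gene was chosen on these values, and they carry no test. Both sequencing lanes gave like numbers of reads, 1676 and 1673 in the first SSM library from ndLNs.

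**Figure D1:**
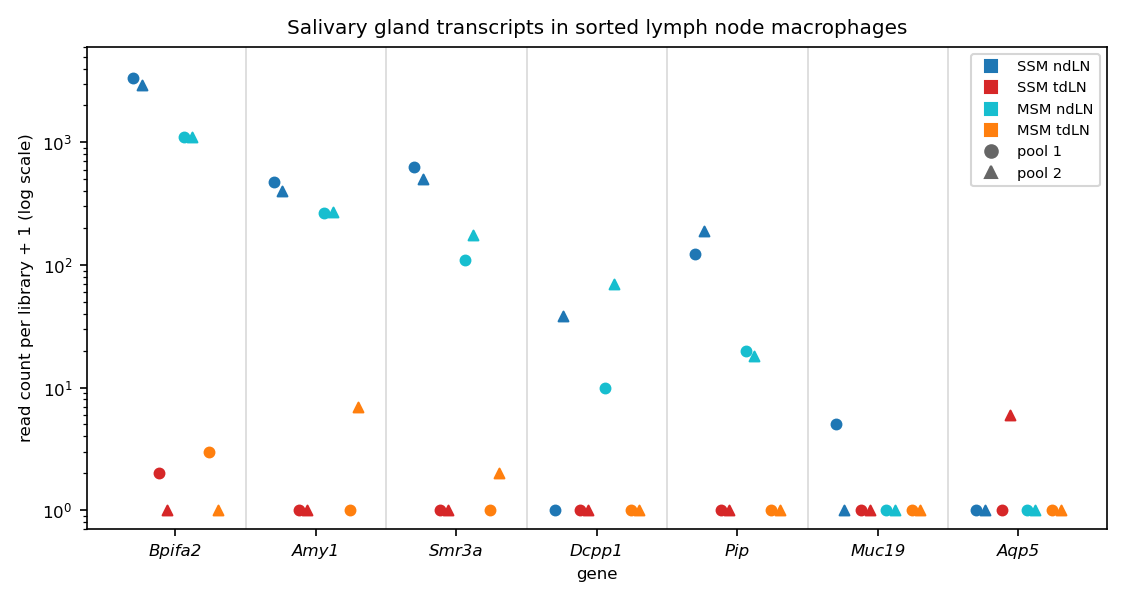
Read counts of the 7 genes in each of the 8 libraries (vertical axis, count plus 1, log scale), with color for the group and symbol for the pool. Bpifa2, Amy1, Smr3a and Pip lie at 17 counts or more in all 4 ndLN libraries and at 6 or fewer in all 4 tdLN libraries, whereas Muc19 and Aqp5 lie at 0 in all but 1 library each.

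Among the serous products, Amy1 (ENSMUSG00000074264, chr3:113555710-113606699, minus strand) followed the same order of groups. It was counted 471 and 401 times in SSMs and 265 and 269 times in MSMs from ndLNs, against 0 and 0 times in SSMs and 0 and 6 times in MSMs from tdLNs. The ndLN and tdLN libraries did not overlap in either subset. Amy1 was at least 247-fold higher in SSMs from ndLNs than from tdLNs, set against a floor of 3 counts over the group (edgeR quasi-likelihood test, Benjamini-Hochberg adjusted p = 0.00192). In MSMs the ratio was 92.0 (counting interval, 42.0 to 252), and Amy1 fell in tdLNs with a log2 fold change of -6.47 ± 0.76 (SE; edgeR adjusted p = 0.0183). The MSM call was lost, at an adjusted p of 0.0514 to 0.314, without any 1 of the 4 MSM libraries or of the 2 SSM libraries from tdLNs. Its log2 fold change was -5.50 without the first and -11.24 without the second MSM library from tdLNs, which held the 6 counts. Rnpc3, which overlaps Amy1 on the same strand, was counted 1048 and 1011 times in SSMs from ndLNs and 1151 and 883 times in SSMs from tdLNs, so the overlapping gene was near the same count on both sides. The pancreatic amylase genes Amy2a1 to Amy2a5 and the pseudogene Amy2b had 0 counts in every library.

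Smr3a (ENSMUSG00000029280, chr5:88002549-88008534, plus strand) was counted 626 and 502 times in SSMs and 108 and 173 times in MSMs from ndLNs. Its tdLN libraries held 0 and 0 counts in SSMs and 0 and 1 in MSMs. Every ndLN library was above every tdLN library. Smr3a was at least 319-fold higher in SSMs from ndLNs than from tdLNs (edgeR adjusted p = 0.00361). In MSMs the ratio was 290.4 (counting interval, 51.7 to 1.151e+04), and the difference missed the threshold (edgeR adjusted p = 0.086). Without the pool term the same MSM comparison gave an adjusted p of 0.0397.

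Pip (ENSMUSG00000058499, chr6:41847535-41852065, plus strand), a secreted protein of saliva, tears and other exocrine fluids, was less abundant. It was counted 122 and 189 times in SSMs and 19 and 17 times in MSMs from ndLNs and was at 0 in all 4 tdLN libraries. Pip was at least 88.1-fold higher in SSMs from ndLNs (edgeR adjusted p = 0.0168), a call that was lost without any 1 of the 4 SSM libraries (adjusted p = 0.0585 to 0.155). In MSMs the bound was at least 12.4-fold (edgeR adjusted p = 0.408).

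Dcpp1 (ENSMUSG00000096445, chr17:23880876-23882853, plus strand) varied most between pools. It was counted 0 and 37 times in SSMs and 9 and 69 times in MSMs from ndLNs, and 0 times in every tdLN library. The lower count in both ndLN subsets belonged to pool 1, which had 0 in SSMs, so the ndLN and tdLN groups touched at 0. The bounds were at least 10.5-fold in SSMs (edgeR adjusted p = 0.217) and at least 26.9-fold in MSMs (edgeR adjusted p = 0.234), and neither passed.

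The mucous and acinar membrane members were not detected beyond a few reads. Muc19 (ENSMUSG00000044021, chr15:91838326-91934555, plus strand) had 4 counts in 1 SSM library from ndLNs and 0 in the other 7. Aqp5 (ENSMUSG00000044217, chr15:99590782-99594829, plus strand) had 5 counts in 1 SSM library from tdLNs and 0 in the other 7. At library totals between 42972328 and 48130352 counts, a count of 0 allows a level of up to 0.0623 to 0.0698 CPM, which covers counting error only.

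Part of the sequence of 4 members is shared with other genes, which could lower their counts. Of the 50-base windows in the annotated exons of Amy1, 33.3% also occurred in the pancreatic amylase genes, the pseudogene Amy2b or Rnpc3. The share was 41.9% for Smr3a, in the overlapping Gm28434, and 46.5% for Dcpp1, in Dcpp2 or Dcpp3. For Muc19 it was 0.788%, in the overlapping Smgc. Bpifa2, Pip and Aqp5 shared 0 windows. Gm28434, Smgc and Dcpp2 had 0 counts in every library and Dcpp3 had 4 counts in 1 SSM library from ndLNs.

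Counted over the 4 members other than Bpifa2 that passed the filter, 3 (Amy1, Smr3a and Pip) passed an adjusted p under 0.05 between tdLNs and ndLNs in SSMs, all lower in tdLNs, where 9.65% of all genes passed in either direction. In MSMs, 1 of 4 (Amy1) passed, where 0.46% of all genes did. These members met the filter through their ndLN libraries, with 0 to 6 counts in all 4 tdLN libraries together, and so could differ only by being lower in tdLNs, and their counts are no support for a direction. At the stricter call of an adjusted p under 0.01 with a mean normalized count over 100 per lane, cut-offs that the study set on another test and adjustment, 0 of 4 were called in either subset, against 3.03% of all genes in SSMs and 0.0237% in MSMs. Their means per lane, 84.1 for Amy1, 80.2 for Smr3a, 19.6 for Pip and 7.13 for Dcpp1, were all below that minimum, so the stricter call could not be met. With an adjusted p under 0.01 and no minimum, Amy1 and Smr3a passed in SSMs, where 3.16% of all genes did. In the main edgeR fit all 4 members had an unadjusted p under 0.05 in each subset, but without the pool term 3 did. The share of all genes at this unadjusted threshold was not computed, so these counts are a description.

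For Bpifa2 and 3 of the 4 other tested members (Amy1, Smr3a and Pip), every ndLN library was above every tdLN library in normalized CPM. Bpifa2 was chosen on its low tdLN counts, and the other 3 met the filter through their ndLN libraries. They could hardly show another order, so it is no support for a direction. This order was seen in 2.19% of the genes tested. A sharper form, at least 10 counts in every ndLN library and at most 6 in every tdLN library, was set after the counts had been seen, with 6 taken from the highest tdLN count of Amy1. It was met by 8 genes, 0.0379% of those tested, and by 4 of the 7 members. Besides Bpifa2, Amy1, Smr3a and Pip, these were Chia1, 2310057J18Rik, Gm37052 and Smim6. The reverse pattern, with tdLN and ndLN exchanged, was met by 7 genes, among them the acute-phase protease inhibitor Serpina3n.

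Chia1 encodes the acidic mammalian chitinase, an enzyme of saliva and gastric juice. It was counted 235 and 120 times in SSMs and 137 and 85 times in MSMs from ndLNs, and 0 times in all 4 tdLN libraries. The bounds were at least 100.5-fold in SSMs (edgeR adjusted p = 0.0146) and at least 76.5-fold in MSMs (edgeR adjusted p = 0.108). The gene 2310057J18Rik was counted 205 and 145 times in SSMs and 69 and 71 times in MSMs from ndLNs, and 0 times in all 4 tdLN libraries. It was at least 99.1-fold higher in SSMs from ndLNs (edgeR adjusted p = 0.0148) and at least 48.2-fold higher in MSMs (edgeR adjusted p = 0.162). Gm37052 and Smim6 were sparser, with 10 to 47 counts in ndLN libraries and 0 to 6 in tdLN libraries. These genes were named because of this pattern, and it is no independent sign of it.

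**Figure D2:**
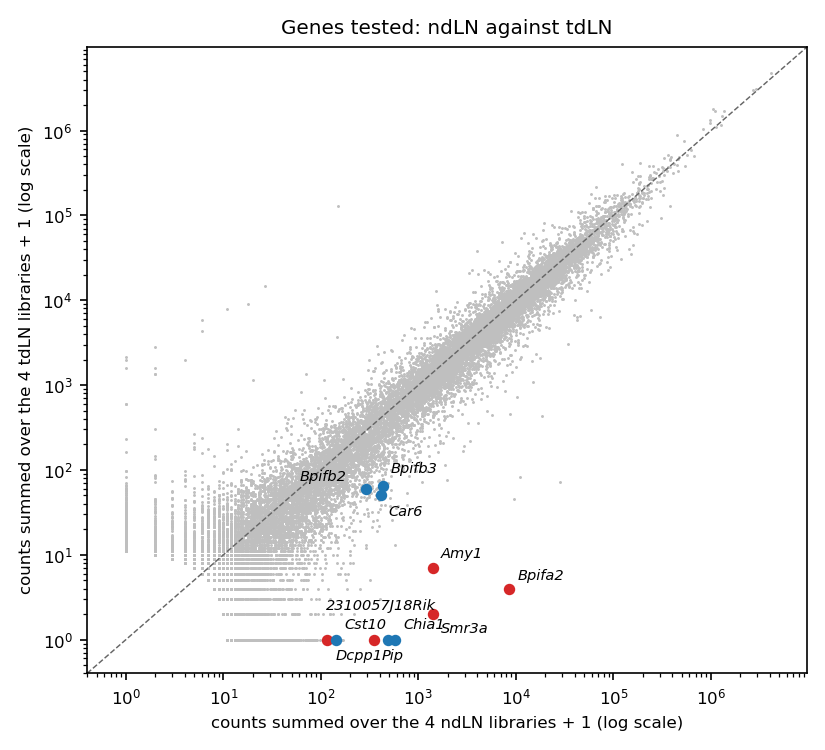
Counts of each tested gene summed over the 4 ndLN libraries (horizontal axis) and over the 4 tdLN libraries (vertical axis), each plus 1 on a log scale, with the tested members in red, other named secretory genes in blue and the dashed line at equal counts. Bpifa2, Amy1 and Smr3a lie far below the line, Pip and Dcpp1 lie at 0 tdLN counts, and Bpifb2, Bpifb3 and Car6 lie closer to the line with some counts in tdLNs.

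In ndLNs the members did not keep one ratio between subsets. Bpifa2 was 2.29-fold higher in SSMs than in MSMs (counting interval, 2.19 to 2.41), given without a test because these libraries chose the gene. Smr3a was higher in SSMs by a log2 fold change of 1.70 ± 0.34 (SE; edgeR adjusted p = 0.0165) and Pip by 2.82 ± 0.62 (edgeR adjusted p = 0.024). Amy1 was closer between the subsets, with a log2 fold change of 0.39 ± 0.31 (edgeR adjusted p = 0.40), and Dcpp1 had -1.26 ± 0.83 (edgeR adjusted p = 0.325), which moved to -6.41 without the SSM library and to -5.05 without the MSM library of pool 2. Thus 2 of 4 members passed an adjusted p under 0.05, where 23.4% of all genes passed. At the stricter call 0 of 4 were called, against 12.1% of all genes. The means of the members were below its minimum count, so the stricter call could not be met. The calls of Smr3a and Pip were lost without any 1 of the 4 ndLN libraries, with adjusted p values of 0.0612 to 0.141 and 0.0751 to 0.224.

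The same counts are restated here per 100 Bpifa2 counts of the same library, as a description with no test, since Bpifa2 chose the set. For every 100 Bpifa2 counts there were 14.1 and 13.6 of Amy1 in SSMs and 23.96 and 24.28 in MSMs (counting intervals, 12.3 to 15.5 and 20.9 to 27.8). Pip went the other way, with 3.64 and 6.43 in SSMs and 1.72 and 1.53 in MSMs, and its 2 SSM pools were further apart than their counting intervals. Smr3a stood at 18.7 and 17.1 in SSMs and 9.77 and 15.6 in MSMs, where the pools of MSMs were further apart than their counting intervals. Dcpp1 ranged from 0 to 6.23. Per length, Smr3a came closest to Bpifa2 in ndLN libraries, with an RPKM (CPM per kilobase of exon) of 4.33 to 18.0 against 12.3 to 30.7 for Bpifa2, 1.74 to 2.51 for Amy1 and 0.159 to 1.60 for Pip.

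**Figure D3:**
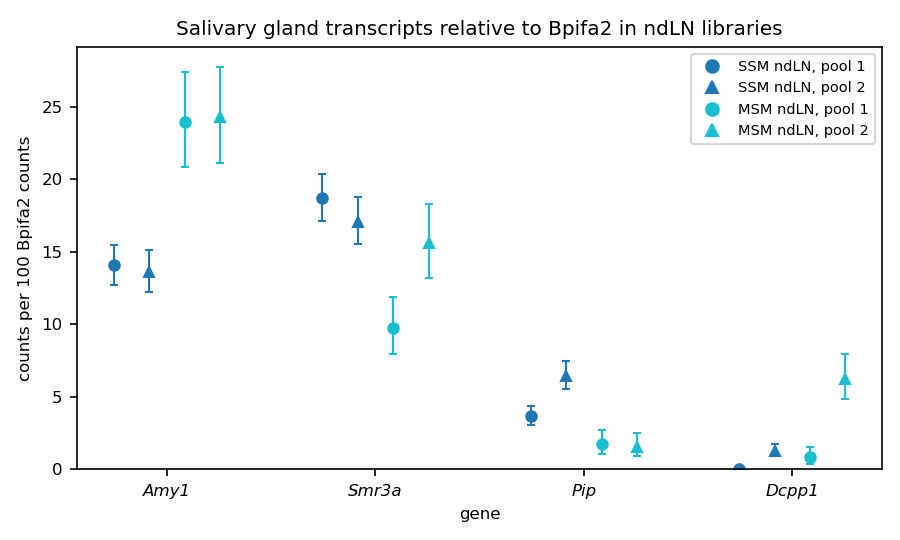
Counts of Amy1, Smr3a, Pip and Dcpp1 per 100 Bpifa2 counts in the 4 ndLN libraries, with 95% exact counting intervals as bars, color for the subset and symbol for the pool. Amy1 lies at about 14 in both SSM libraries and at about 24 in both MSM libraries, whereas Pip is higher in SSMs and Dcpp1 is spread between pools.

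In tdLNs the members were too sparse for a comparison of the subsets. Between SSMs and MSMs from tdLNs 0 of 4 members passed either call, with 0 at an unadjusted p under 0.05 in edgeR and 1 in DESeq2, which left 0 after adjustment, where 8.69% of all genes met the stricter call and 16.8% an adjusted p under 0.05. The interaction of subset and node, the test of whether the tdLN change differed between SSMs and MSMs, called 0 of 4, with 0 at an unadjusted p under 0.05 in edgeR and 1 in DESeq2, which left 0 after adjustment. It called 0.0379% of all genes at the stricter call and 1.02% at the other. In both tests the stricter call could not be met, since the means of the members were below its minimum count. A difference between the subsets in this change was not detected with these libraries.

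A longer list of 25 measured genes for salivary secretory products, the 7 members included, held 10 genes that passed the filter. Leaving out Bpifa2, which carries no test, 4 (Amy1, Smr3a, Pip and Car6) were lower in SSMs from tdLNs at an adjusted p under 0.05, where 9.65% of all genes passed, and 1 (Amy1) in MSMs, where 0.46% did. Without the 7 members, 18 genes remained and 5 passed the filter, of which 1 (Car6) passed in SSMs and 0 in MSMs, beside the same 9.65% and 0.46% of all genes. The median log2 fold change of the 5 in SSMs was -2.66, beside -0.04 for all genes tested. Since Bpifa2 and the members took part in the choice, the longer list is no independent set.

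Car6, the secreted carbonic anhydrase of saliva, was counted 225 and 108 times in SSMs from ndLNs and 27 and 17 times in SSMs from tdLNs. It fell in tdLNs by 2.66 on the log2 scale, with an SE of 0.59 (edgeR adjusted p = 0.0244). In MSMs it was counted 38 and 37 times in ndLNs and 0 and 6 times in tdLNs (edgeR adjusted p = 0.291). Unlike the members, Car6 kept counts in both SSM libraries from tdLNs. Cst10, a secreted cystatin, was counted 29 and 91 times in SSMs and 21 and 0 times in MSMs from ndLNs and was at 0 in all 4 tdLN libraries, with an edgeR adjusted p of 0.154 and 0.663. Lpo, the lactoperoxidase of saliva and milk, was counted 16 and 30 times in SSMs and 0 and 91 times in MSMs from ndLNs, against 0 and 17 times and 7 and 14 times in tdLNs. Its groups overlapped. Other genes of the longer list had few or no reads. Prol1, Smr2, Dcpp2, Prh1, Oit1 and Bpifb1 were among those at 0 in all 8 libraries. Prb1 had 1 count in all and Prpmp5 had 4.

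The ducts and granular tubules were represented by 21 genes (the kallikrein family, growth factors and ion transporters), of which 8 passed the filter and 0 passed an adjusted p under 0.05 between tdLNs and ndLNs in either subset. Egf, the epidermal growth factor of granular tubules, was counted 116 and 115 times in SSMs from ndLNs and 55 and 85 times in SSMs from tdLNs. Of 11 regulators, channels and receptors of acinar cells, 7 passed the filter. At an adjusted p under 0.05, 2 (Creb3l1 and Kcnn4) were lower in SSMs from tdLNs, where 9.65% of all genes passed. In MSMs 0 passed, where 0.46% of all genes did. Kcnn4, a potassium channel that leukocytes also express, was counted 2377 and 2620 times in SSMs from ndLNs and 1400 and 1075 times in SSMs from tdLNs, and Creb3l1, a transcription factor of secretory cells, 654 and 450 times against 135 and 119. In MSMs Creb3l1 had 24 and 0 counts in ndLNs and 72 and 48 in tdLNs, an order unlike that of Bpifa2. Sox10, a regulator of acinar and myoepithelial development, had 5 counts in 1 library.

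Bpifa2 lies in a cluster of BPI fold genes on chromosome 2, and its neighbors did not share its level. Bpifa6, next to it, was counted 0 and 0 times in SSMs and 10 and 23 times in MSMs from ndLNs, and Bpifa3, Bpifa1 and Bpifa5 on the other side had 0 counts in every library. Bpifb3, 3 genes away, was counted 210 and 139 times in SSMs from ndLNs and 16 and 32 times in SSMs from tdLNs. It fell by 2.61 on the log2 scale, with an SE of 0.50 (edgeR adjusted p = 0.016). In MSMs Bpifb3 was counted 45 and 35 times in ndLNs and 10 and 6 times in tdLNs (edgeR adjusted p = 0.330). Bpifb2, another secreted member, was counted 86 and 66 times in SSMs and 63 and 76 times in MSMs from ndLNs, against 0 and 18 and 24 and 16 in tdLNs (edgeR adjusted p = 0.104 and 0.401). The groups of Bpifb2 and Bpifb3 did not overlap. Pltp, the phospholipid transfer protein of the same family that macrophages express, went the opposite way, with 3807 and 2631 counts in SSMs from ndLNs and 21615 and 16732 in SSMs from tdLNs (log2 fold change 2.82 ± 0.23, edgeR adjusted p = 0.00158).

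Markers of other tissues and cells were read in the same libraries. Of 14 genes of epithelium and myoepithelium 8 passed the filter. In either subset 0 passed an adjusted p under 0.05 between tdLNs and ndLNs. Their summed level in SSMs was 11.5 to 18.0 CPM in ndLNs and 13.9 to 38.9 CPM in tdLNs, with overlap. In MSMs it was 21.2 to 24.9 CPM in ndLNs and higher, at 35.1 to 52.8 CPM, in tdLNs, without overlap. Krt5, Krt19 and Cldn4 were at 0 in every library, and Epcam was counted 98 to 276 times in SSMs and 607 to 689 times in MSMs. For exocrine pancreas (14 genes), lacrimal and mammary gland (11) and adipocyte and muscle (10), 0 genes passed in either subset, with 4, 2 and 8 tested. Of all genes, 9.65% passed in SSMs and 0.46% in MSMs. The summed level of pancreas genes was 7.56 to 8.04 CPM in SSMs from ndLNs and 3.14 to 4.24 CPM in SSMs from tdLNs, without overlap, and 0.231 to 0.267 CPM against 0.176 to 0.848 CPM in MSMs. The 18 salivary secretory genes outside the 7 members summed to 3.13 to 6.55 CPM in ndLNs and 0.673 to 1.22 CPM in tdLNs, without overlap.

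Connective tissue mast cell genes moved with the members in SSMs. Of 12 genes, 9 were lower in SSMs from tdLNs at an adjusted p under 0.05, where 9.65% of all genes passed in either direction. At the stricter call 2 of them were lower, where 3.03% of all genes were called. The median log2 fold change of the 12 was -2.65, and their summed level was 2256 to 3334 CPM in ndLNs and 401 to 858 CPM in tdLNs. In MSMs 0 of the 12 passed, where 0.46% of all genes did, with 672 to 691 CPM in ndLNs and 312 to 409 CPM in tdLNs. In MSMs from ndLNs, Mrgprb1, Mrgprb2 and Tph1 were at 0, and Cpa3, Mcpt4, Fcer1a and Tpsab1 were counted 1 to 8 times. Cma1 was counted 21 and 75 times there, Tpsb2 21 and 87 times and Gata2 18 and 153 times, more than Pip with 19 and 17 in all but the first library of Gata2. Kit and Hdc, which were counted 23637 and 27573 and 2514 and 3121 times in those libraries, made up most of the sum. Of 7 genes of mucosal mast cells and basophils, 3 were higher in SSMs from tdLNs at an adjusted p under 0.05 and 0 were lower. The summed level of the 7 was 29.9 to 64.9 CPM in SSMs from ndLNs and 84.5 to 132 CPM in SSMs from tdLNs. The part of mast cell RNA in the result was not tested. T and B cell genes, though the sort excluded CD3 and B220, summed to 685 to 748 CPM in SSMs from ndLNs and 224 to 235 CPM in SSMs from tdLNs, and to 569 to 728 against 458 to 513 CPM in MSMs. Of these 7 genes 3 were lower in SSMs and 2 in MSMs from tdLNs at an adjusted p under 0.05. Of all genes, 9.65% passed in SSMs and 0.46% in MSMs. The part of T and B cell RNA in the result was not tested.

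The sorted population also differed between nodes. Of 9 macrophage genes, 8 were higher in SSMs from tdLNs at an adjusted p under 0.05 and 0 passed in MSMs. The shares of all genes that passed were 9.65% in SSMs and 0.46% in MSMs. Siglec1, which encodes the CD169 used in the sort, was counted 822 and 419 times in SSMs from ndLNs and 3124 and 2581 times in SSMs from tdLNs, but only 31 and 73 and 246 and 256 times in MSMs. The MSM libraries were thus low in a defining marker of their gate. The summed macrophage level was 7576 to 1.084e+04 CPM in SSMs from ndLNs, 1.746e+04 to 2.503e+04 CPM in SSMs from tdLNs and 6127 to 6907 CPM in all 4 MSM libraries. The summed values of ndLNs and tdLNs overlapped in MSMs. The part of macrophage content in the result was not tested in either subset.

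**Figure D4:**
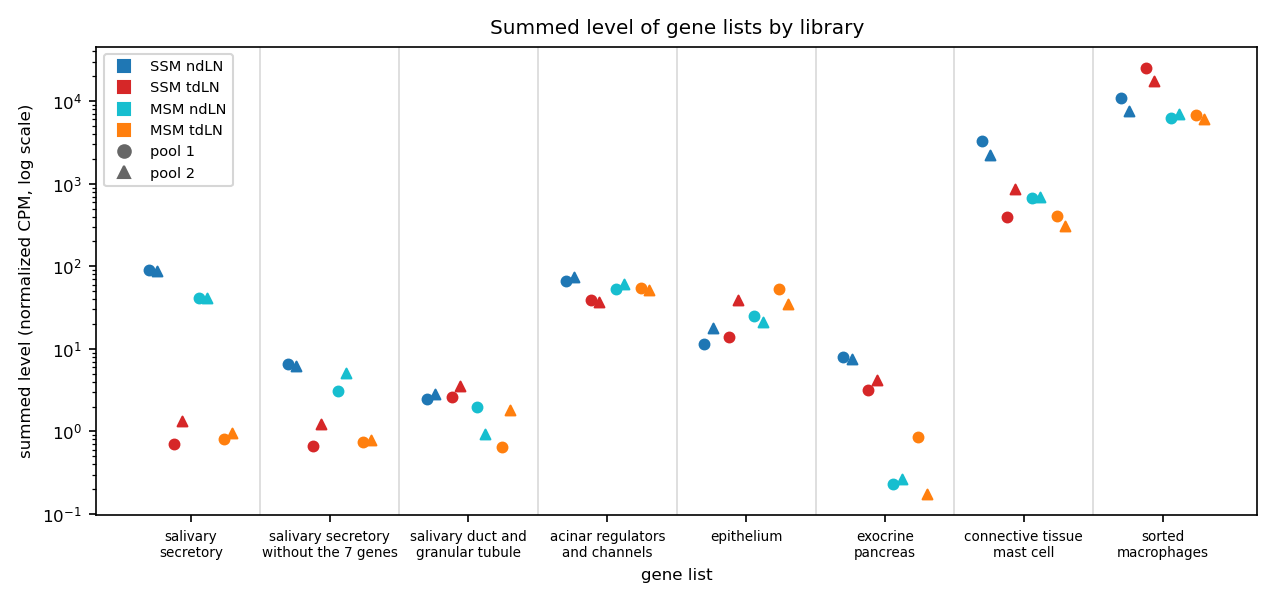
Summed level of 8 gene lists in each library (normalized CPM, log scale), with color for the group and symbol for the pool. The salivary secretory list, with and without the 7 genes, separates ndLN from tdLN libraries in both subsets, and so does the connective tissue mast cell list. Duct values overlap between nodes in both subsets, epithelium values in SSMs and macrophage values in MSMs.

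The abundant genes most like Bpifa2 in pattern were of another kind, and the minimum count kept all other members out of that list. By Pearson r of log2(CPM + 1) over the 8 libraries, among 9996 genes with a mean normalized count over 100 per lane, the first 10 were Chpf (0.98), Zmynd11, Tmc6, Atg16l2, D030028A08Rik, N4bp2l2, Zc3h7a, Srpk1, Dennd4a and Ppan (0.95). These values describe 8 libraries that share their groups and depth, and 4 libraries at or near 0 set much of each r. Chpf, a chondroitin polymerizing factor, had 60.3 and 68.8 CPM in SSMs and 55.8 and 59.4 CPM in MSMs from ndLNs, against 33.7 and 32.6 CPM and 35.9 and 30.1 CPM in tdLNs. Its 4 ndLN libraries were all above its 4 tdLN libraries, but no tdLN library was below 30.07 CPM. Among the members, r to Bpifa2 was 0.997 for Amy1, above that of Chpf, 0.98 for Smr3a, 0.84 for Pip and 0.58 for Dcpp1.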

How the data were processed

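RNA of about 10,000 sorted cells per library was amplified with SMART-Seq v4 and sequenced on 2 lanes of a HiSeq instrument. The authors deposited raw counts per gene for 16 samples, 8 libraries on 2 lanes each, made with bcl2fastq 2.20.0.422, Trimmomatic 0.36 and STAR 2.5.3a on GRCm38, per the submitters' processing notes. The strand setting and the treatment of shared reads are not given in the sources used here. Of 55423 table lines, 2 were added sequences with 6 counts in all and were left out, and 0 columns were unused. Symbols, coordinates and exon lengths came from GENCODE M21, which matched 55240 IDs.

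Lanes were summed after they were found to differ by no more than sampling noise (chi-square per degree of freedom 0.955 to 1.01, against 29.3 to 53.1 between libraries of a group). Totals were 42972328 to 48130352 counts. Genes with at least 10 counts in all and counts in at least 2 of the 16 samples were kept (21085). The 8 libraries were fitted in edgeR 4.0.16 (R 4.3.3, TMM factors 0.902 to 1.15) by group and pool, with the quasi-likelihood test and Benjamini-Hochberg adjustment over all genes tested. The pool term follows the study's models. The study describes 4 pools that each gave all sorted samples, while the labels number 2, which were used here, so it is unsure that tdLN and ndLN libraries of one number share their mice. The study's own test was DESeq2's likelihood ratio test with Holm adjustment. Same-numbered libraries deviated from their group means with r of -0.15 to 0.164 over 10000 genes. The fit was tested on simulated data. Each SE of a log2 fold change was derived from the test, as its absolute value over the square root of the quasi-likelihood F statistic. Where a group was at or near 0 counts, such an SE is a rough guide only. Counting intervals are exact 95% binomial intervals and cover counting error only. A fold against a group at 0 is a bound against 3 counts over the group.

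The members, lists and tests were chosen with earlier results of these data known. Named genes were the 7 members, up to 4 of the highest genes of each list, chromosome neighbors of Bpifa2 and the 10 genes of most like pattern. Car6, Cst10, Lpo, Chia1, 2310057J18Rik, the genes named at 0 and others outside that rule were named after their values were seen. Alternatives were DESeq2 1.42.0, its size factors, no filter, single lanes, no pool term and each library left out.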

Additional observations from a re-analysis of the deposited data

How the results depend on the processing

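No direction of a tested member was reversed under 14 alternatives in the comparisons of tdLNs with ndLNs and of SSMs with MSMs in ndLNs. Between tdLNs and ndLNs the direction was fixed beforehand, and its stability is no support. These members met the filter through their ndLN libraries and had few or no counts in tdLNs. The number of members called was 0 at the stricter call in all 5 comparisons under every fit that kept all 8 libraries. In the main fit the means per lane of the 4 tested members were 7.13 to 84.1, below the minimum count of that call. The stricter call could not be met there, so its 0 is no sign of stability. The number of members called moved with the threshold. At an adjusted p under 0.05 with no minimum count it was 3 in SSMs and 1 in MSMs between tdLNs and ndLNs, and 2 between SSMs and MSMs in ndLNs, and at an adjusted p under 0.01 with no minimum, added after seeing the data, it was 2 in SSMs. In SSMs, dropping the minimum alone gave the 2 calls, and elsewhere it gave 0, so that the other moves came with the wider p threshold. Amy1 and Smr3a kept an edgeR or DESeq2 adjusted p under 0.05 in SSMs throughout (highest 0.0356 and 0.0466).

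Without the replicate block, that is without the pool term, the adjusted p in SSMs was 0.000715 for Amy1, 0.00136 for Smr3a and 0.0106 for Pip, and in MSMs 0.0108 for Amy1 and 0.0397 for Smr3a (log2 fold change -7.87), the only call that the paired term changed. The DESeq2 Wald test also passed Smr3a (6.0e-06) and Pip (0.00877) in MSMs and put Pip at 0.0522 between SSMs and MSMs in ndLNs. The cause was not tested. With 2 libraries per group, leaving 1 out leaves a lone library that is assumed to vary like the others. Muc19 and Aqp5 had too few counts to be tested, and Dcpp1 moved with single libraries, its log2 fold change in SSMs from -7.06 to -1.89 without the second SSM library from ndLNs.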
